A study of Mus musculus with 32 samples.

Results

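The complement genes examined here are 9 of the 32544 genes in the count table, chosen by symbol. They are the 3 chains of C1q (C1qa, C1qb and C1qc), the components C4b and C3, the alternative-pathway protease Cfb, the regulator Cfi, and the receptors C3ar1 and C5ar1. All 9 symbols were found. RNA came from the kidney cortex of 32 mice of the strain C57BL/6J-Col4a3tm1Dec at 25 weeks of age, with 8 groups of 4 by sex, genotype and diet. Alport mice were Col4a3-/-, and lack a chain of the type IV collagen of the glomerular basement membrane. Controls were Col4a3+/-, so the control mice also carried a null allele, and no wild-type mice were analysed. Mice received vehicle or nicotinamide riboside (NR), a precursor of NAD+ that was mixed into the diet. Each library measured poly(A) RNA of 1 mouse as counts per gene, with 16621944 to 27778797 counts per library (median 22071395), given below as CPM, counts scaled to library size after adjusting the libraries by the trimmed mean of M-values. A fold change is called where its adjusted p from edgeR is under 0.05.

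Complement is a cascade of proteins that marks and lyses targets and recruits leukocytes. C1q binds immune complexes and dying cells and starts the classical pathway, C4 and C3 are cleaved and attach to surfaces, factor B builds the alternative-pathway enzyme that cleaves more C3, and factor I cuts the attached fragments to stop this. The small fragments C3a and C5a act on the receptors encoded by C3ar1 and C5ar1. Most circulating complement comes from the liver, but tubular epithelium can make C3, factor B and C4, and resident macrophages make C1q.

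The targeted gene and the cell content were checked first. Col4a3 was at 48.8 to 83.2 CPM in the 16 Alport mice and at 59.4 to 200.7 CPM in the 16 control mice, so the table still holds reads of the targeted gene in Col4a3-/- mice. In 2 libraries labelled male control on NR, replicates 1 and 3, Col4a3 was at 59.4 and 75.2 CPM, within the range of the Alport mice. Calls that NR-treated male controls gave are followed by their values without these libraries. Libraries of the male Alport mice on NR stood apart as well. In replicate 1 of the male Alport mice on NR, 8 of the 9 genes (all but Cfb) were higher than in the other 3 mice, and the 12 macrophage markers summed to 884 CPM against 227 to 378 CPM in the others. Over all genes, chi-square per degree of freedom was 158 and 162 between replicate 1 of that group and replicates 2 and 4. Replicate 3 differed from replicates 1, 2 and 4 as well, with values of 117, 141 and 172. Between replicates 2 and 4 the value was 24.4. Cfb in replicate 3 was at 212 CPM, against 425 to 485 CPM in the other mice of the group. The proximal tubule genes Slc34a1 and Lrp2 were at 1081 to 8296 and 665 to 3009 CPM over the 32 mice and the podocyte gene Nphs1 at 26.8 to 89.5 CPM. No library had over 1 count of the neutrophil gene Ly6g, over 6 of the hepatocyte gene Ahsg or over 9 of the adipocyte gene Adipoq, while other genes of those lists were detected, as given beside the results.

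The genes lie at 6 places of the mm10 genome (GENCODE M21 annotation). C1qb, C1qc and C1qa follow each other on the minus strand of chromosome 4 from 136880129 to 136898803. C4b (34728380 to 34743882) and Cfb (34856374 to 34862518) lie near each other on the minus strand of chromosome 17, and C3 is on the same chromosome and strand at 57203970 to 57228136. Cfi is on the plus strand of chromosome 3 (129835884 to 129875332), C3ar1 on the minus strand of chromosome 6 (122847138 to 122856161) and C5ar1 on the minus strand of chromosome 7 (16246743 to 16259540). Reads of C4b can be shared with its copy C4a at 34809092 to 34823464 on chromosome 17, whose annotated transcript is 96.1% identical to that of C4b over 5367 aligned bases. Of the windows of 100 bases in the C4b transcript, 16.5% occurred unchanged in that of C4a. C4a has no line in the count table, so the C4b values are uncertain in that respect. Cfb overlaps the annotated gene Gm20547, so its reads may be shared as well.

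Promoters of 250 bases before to 50 after the start (RefSeq, GRCm38.p6) were matched for 5 of the 9 genes. They are shown for C3, which had the highest fold changes of the 9, and for C1qb and C1qc, which moved together.
C3 (chr17:57228087-57228386, minus strand): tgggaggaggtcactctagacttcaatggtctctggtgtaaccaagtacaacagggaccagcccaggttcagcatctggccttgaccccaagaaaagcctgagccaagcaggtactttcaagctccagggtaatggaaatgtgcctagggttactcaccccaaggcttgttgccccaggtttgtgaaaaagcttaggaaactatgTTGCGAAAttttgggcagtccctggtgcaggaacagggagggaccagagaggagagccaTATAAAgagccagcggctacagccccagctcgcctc
C1qb (chr4:136886151-136886450, minus strand): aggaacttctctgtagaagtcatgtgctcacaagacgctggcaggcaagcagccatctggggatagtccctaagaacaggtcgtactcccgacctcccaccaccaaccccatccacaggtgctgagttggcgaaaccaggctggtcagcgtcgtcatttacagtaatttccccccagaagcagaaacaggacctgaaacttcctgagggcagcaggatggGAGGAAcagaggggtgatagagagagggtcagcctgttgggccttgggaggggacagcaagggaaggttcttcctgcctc
C1qc (chr4:136892865-136893164, minus strand): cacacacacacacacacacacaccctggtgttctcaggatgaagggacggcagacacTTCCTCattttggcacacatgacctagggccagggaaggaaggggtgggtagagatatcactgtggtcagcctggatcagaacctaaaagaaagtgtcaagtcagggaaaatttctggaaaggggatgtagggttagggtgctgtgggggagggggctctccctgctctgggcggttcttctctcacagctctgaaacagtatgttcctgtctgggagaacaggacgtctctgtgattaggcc
The sequences run 5′ to 3′ and the capitals mark matches to 4 motifs searched on both strands. These were GAGGAA, a core bound by PU.1, TTNNGCAA for C/EBP factors, TTCNNNGAA for STAT factors and the TATA box TATAAA. C3 held TTNNGCAA on the reverse strand, with its first base 45 bases before the annotated start, and TATAAA from base 15 after it. C1qb held GAGGAA from 30 bases before its start, and C1qc held it on the reverse strand from 193 bases before. Among 32851 promoters of the same length, GAGGAA was present in 28.3%, TTNNGCAA in 10.8%, TTCNNNGAA in 8.3% and TATAAA in 13.6%. C3ar1 held 1 match, a TATAAA from 235 bases before its start, and C5ar1 held none of the 4. These matches only describe the letters of the windows.

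Vehicle-treated Alport mice were compared with vehicle-treated controls to ask how the disease changes the cortex. In males 8 of the 9 genes were called higher and none lower, while 26.8% of the 15286 genes tested were called higher and 24% lower. In females the same count was 8 of 9 higher and none lower, while 23.9% of 15709 genes were called higher and 21.8% lower. The median log2 fold change of the 9 genes was 3.31 in males and 2.69 in females, beside -0.0013 and -0.00083 for all genes tested. The gene not called was Cfb in both sexes. For the other 8, the ranges of Alport and control mice did not overlap in either sex, as was so in the same direction for 22.1% of all genes in males and 20.7% in females. In bulk tissue, fewer cells of a type and less RNA per cell cannot be told apart, nor can their opposites.

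The chains of C1q rose together. C1qb was at 8.98, 9.53, 7.60 and 8.23 CPM in the 4 vehicle-treated male controls and at 81.9, 81.4, 86.5 and 72.4 CPM in the male Alport mice. In females it was at 11.3, 9.95, 17.5 and 12.5 CPM in controls and 105, 56.2, 80.5 and 80.3 CPM in Alport mice. The Alport values lay far above those of controls, with replicate 2 the lowest of the female Alport mice for all 3 chains. The log2 fold change of C1qb was 3.31 ± 0.095 (SE) in males (adjusted p = 1.69e-10) and 2.69 ± 0.23 (SE) in females (adjusted p = 5.80e-05). C1qa changed by 3.43 ± 0.13 (SE) and 2.62 ± 0.25 (SE) and C1qc by 3.49 ± 0.11 (SE) and 2.64 ± 0.24 (SE) on the same scale, males first. The C1q protein is built from all 3 chains. Over the 32 mice, log2 CPM of C1qa minus C1qb had a median of 0.073 and an SD of 0.15. The same difference of C1qb minus C1qc had a median of 0.42 and an SD of 0.17.

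C4b encodes C4, the component that the C1 complex cleaves. It was at 14.3, 22.0, 7.15 and 10.6 CPM in vehicle-treated male controls and at 109, 142, 90.0 and 99.8 CPM in male Alport mice. Female C4b was at 6.43, 4.43, 9.53 and 4.89 CPM in controls and 53.0, 33.6, 59.6 and 53.5 CPM in Alport mice. Every vehicle-treated female Alport mouse was below every such male, and above the controls of both sexes. C4b rose in each sex, with a log2 fold change of 3.11 ± 0.35 (SE) in males (adjusted p = 0.000215) and 3.01 ± 0.27 (SE) in females (adjusted p = 7.32e-05).

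C3, on which all activation pathways converge, moved most of the 9 genes in both sexes. It was at 21.2, 21.7, 26.2 and 22.7 CPM in vehicle-treated male controls and at 1205, 1243, 1371 and 1192 CPM in male Alport mice. Female C3 was at 57.4, 68.8, 93.7 and 54.7 CPM in controls and 2245, 1078, 2269.8 and 1745 CPM in Alport mice. The male groups were tight and far apart, and the female Alport mice spread from 1078 to 2270 CPM with replicate 2 the lowest. The log2 fold change was 5.86 ± 0.13 (SE) in males (57.9-fold, adjusted p = 2.12e-11) and 4.77 ± 0.29 (SE) in females (27.3-fold, adjusted p = 8.75e-06). Per kilobase of exon, C3 went from 4.46 to 244 CPM per kb in males and from 13.4 to 357 CPM per kb in females as group means.

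Cfb, which encodes factor B, differed from the rest in being abundant in every mouse. It was at 572, 616, 572 and 557 CPM in vehicle-treated male controls and 477, 592, 381 and 556 CPM in male Alport mice. In females it was at 374, 442, 413 and 399 CPM in controls and 386, 406, 405 and 432 CPM in Alport mice. The groups overlapped in each sex. The log2 fold changes were -0.12 ± 0.13 (SE) in males (adjusted p = 0.452) and 0.039 ± 0.084 (SE) in females (adjusted p = 0.734). Per kilobase, Cfb was the highest of the 9 genes in vehicle-treated controls, at a mean of 205 CPM per kb in males and 144 in females, and C3 was higher than Cfb in vehicle-treated Alport mice.

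Cfi, the protease that cuts C3b and C4b with the help of cofactors, rose as well. It was at 4.25, 3.46, 3.45 and 3.43 CPM in vehicle-treated male controls and 32.7, 30.0, 26.1 and 26.4 CPM in male Alport mice. The female values were 9.13, 7.10, 10.5 and 5.08 CPM in controls and 56.2, 35.2, 48.0 and 47.1 CPM in Alport mice. Both female groups were above their male counterparts without overlap. The log2 fold change was 3.07 ± 0.12 (SE) in males (adjusted p = 2.22e-09) and 2.58 ± 0.22 (SE) in females (adjusted p = 4.97e-05).

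The receptors were the lowest of the 9 genes per kilobase in vehicle-treated mice and rose in both sexes. C3ar1 was at 1.33, 1.58, 2.17 and 2.28 CPM in vehicle-treated male controls and 13.8, 18.2, 15.3 and 12.0 CPM in male Alport mice. Female C3ar1 was at 1.29, 1.31, 3.49 and 2.93 CPM in controls and 17.8, 9.99, 15.8 and 17.1 CPM in Alport mice. All Alport mice were above all controls of their sex. The log2 fold change of C3ar1 was 3.09 ± 0.19 (SE) in males (adjusted p = 8.12e-08) and 2.79 ± 0.33 (SE) in females (adjusted p = 0.000191). C5ar1 rested on few reads in controls, with 1 to 9 counts per library in vehicle-treated males and 3 to 20 in females, against 70 to 138 and 102 to 157 in Alport mice. Its CPM was 0.372, 0.0428, 0.444 and 0.333 in male controls and 2.84, 4.67, 5.27 and 3.18 in male Alport mice. Among females its CPM was 0.257, 0.113, 0.667 and 0.915 in controls and 5.04, 3.85, 4.56 and 5.75 in Alport mice. No Alport mouse on vehicle was as low as any control of its sex. The log2 fold change was 3.84 ± 0.42 (SE) in males (adjusted p = 8.56e-06) and 3.35 ± 0.42 (SE) in females (adjusted p = 0.000163).

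**Figure D1:**
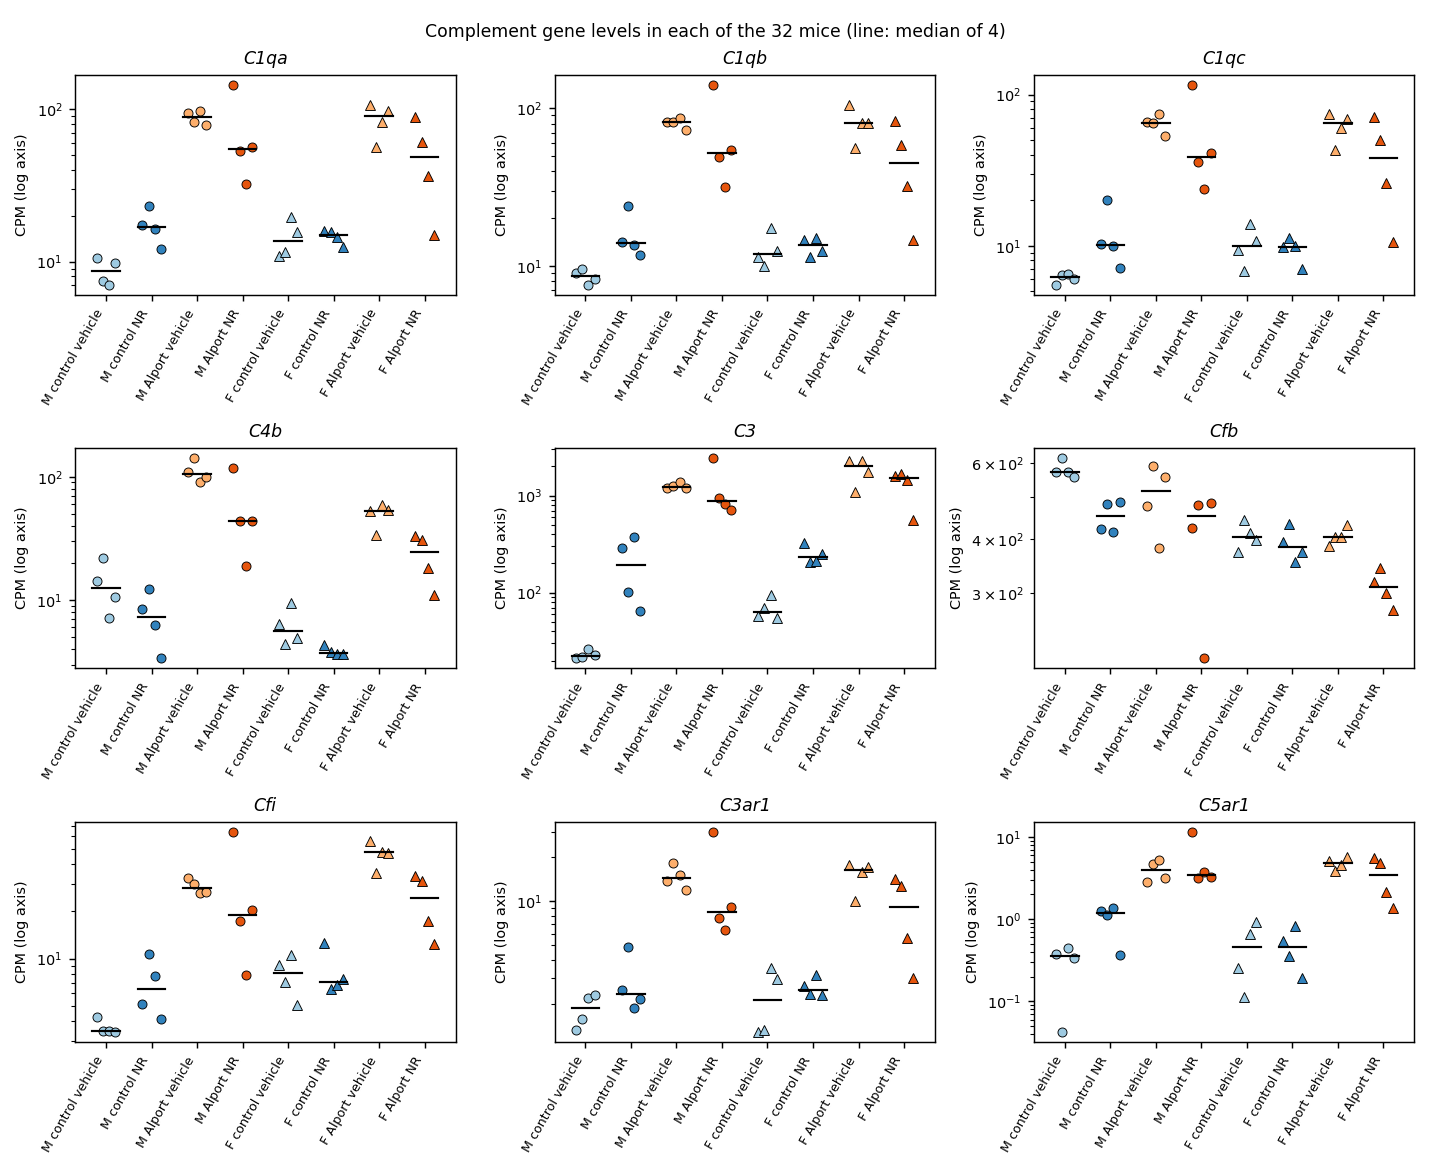
Level of each complement gene in CPM on a log axis in the 8 groups, 1 point per mouse (circles male, triangles female) with a line at the median of 4 mice. All genes but Cfb were higher in vehicle-treated Alport mice than in vehicle-treated controls without overlap, and replicate 1 of the male Alport mice on NR is the highest point of its group for all but Cfb.

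Markers of other cells moved with these genes. The 12 macrophage markers summed to 141 to 173 CPM in vehicle-treated male controls and 478 to 645 CPM in male Alport mice, with 11 of 12 called higher. In females the sums were 163 to 220 and 402 to 664 CPM, with 10 of 12 called higher and 1 lower. The 8 injured-tubule markers, among them Havcr1 and Lcn2, were all called higher in both sexes, with sums of 553 to 700 against 6186 to 7532 CPM in males and 1452 to 1996 against 7426 to 11898 CPM in females. The 10 fibroblast markers were all called higher in both sexes, with sums of 136 to 161 against 1115 to 1768 CPM in males and 173 to 281 against 905 to 1502 CPM in females. The 12 proximal tubule markers summed to 19176 to 21280 against 6704 to 10991 CPM in males, with 12 called lower, and to 15707 to 18571 against 6733 to 10922 CPM in females, with 11 called lower and 1 higher. Of 9 T and B cell markers tested, 9 were called higher in males and 6 in females, with sums of 8.73 to 11.6 against 27.8 to 454 CPM and 11.1 to 35.2 against 28.8 to 210 CPM. Of 8 podocyte markers, 7 were called higher in each sex. Their sums were 378 to 446 against 702 to 1087 CPM in males and 556 to 594 against 796 to 915 CPM in females. Of 8 endothelial markers, 7 were called higher in males and 5 in females. Their sums were 397 to 446 against 538.5 to 676 CPM in males and 453 to 588 against 557 to 636 CPM in females. The 8 hepatocyte markers summed to 125 to 235 against 388 to 483 CPM in males and 127 to 141 against 315 to 410 CPM in females, without overlap. Of the 5 of them tested, 2 were called higher and 1 lower in males, and 3 higher and 1 lower in females. The neutrophil sums were 3.90 to 6.71 against 6.93 to 10.01 CPM and 3.83 to 6.39 against 7.39 to 15.3 CPM, and the adipocyte sums 22.6 to 26.5 against 27.5 to 31.3 CPM and 14.6 to 21.3 against 24.1 to 29.4 CPM, males first. The part of these cells in the complement changes was not tested.

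C3 moved by more than C1q. Within each library, log2 CPM of C3 minus the mean log2 CPM of the C1q chains was 1.39, 1.49, 1.89 and 1.52 in vehicle-treated male controls and 3.92, 4.03, 4.00 and 4.15 in male Alport mice. In females it was 2.45, 2.89, 2.47 and 2.09 in controls and 4.57, 4.38, 4.94 and 4.42 in Alport mice. The Alport values were above the control values in every mouse of each sex. The difference of the means was 2.45 in males and 2.10 in females, each with p = 0.0286 in an exact two-sided permutation test (adjusted p = 0.0476 over 5 comparisons), the smallest p that 4 against 4 mice allow. In vehicle-treated Alport mice, the difference was also higher in females than in males, by 0.55 (exact two-sided permutation p = 0.0286, adjusted p = 0.0476), and all 4 females were above all 4 males. Vehicle-treated controls already had all 4 females above all 4 males, with wider-spaced means of 2.47 and 1.57, which was not tested.

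**Figure D2:**
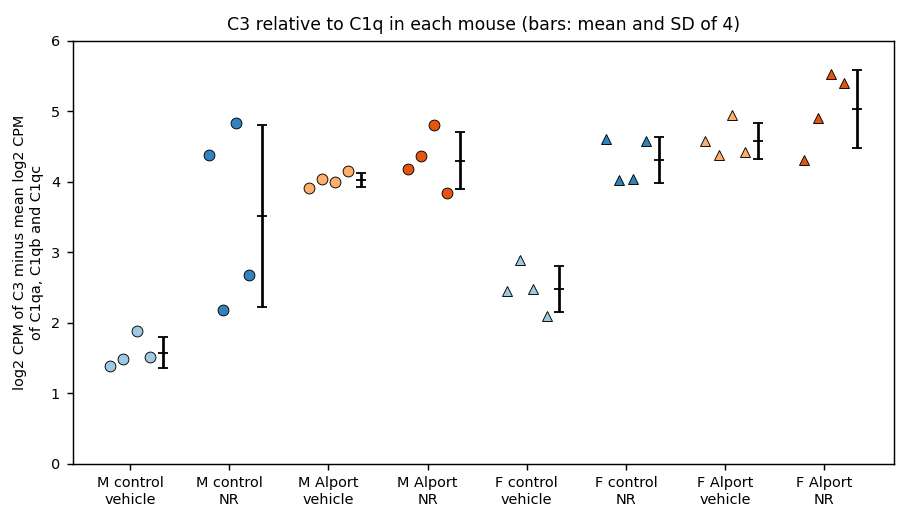
Log2 CPM of C3 minus the mean log2 CPM of C1qa, C1qb and C1qc in each mouse of the 8 groups, with the mean and SD of 4 mice beside the points. Vehicle-treated controls have the lowest group means, 1.57 in males and 2.47 in females, and the other 6 groups have means of 3.52 to 5.03.

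NR was compared with vehicle in Alport mice, the treatment question of the study. None of the 9 genes was called by edgeR in males or females. Over all genes, edgeR called 0% of 15500 in males and 0.458% of 15712 in females. In females all 9 log2 fold changes were below 0, with a median of -0.77, and 3 of 9 had an unadjusted p under 0.05, as had 16.5% of all genes. These 3 were C4b, Cfb and Cfi. In males 8 of 9 were below 0, with a median of -0.24, and none had an unadjusted p under 0.05, as 5.01% of all genes had. DESeq2 called none of the 9 in males either, among 62 genes in all.

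Female C4b was at 32.9, 30.6, 18.3 and 11.01 CPM on NR against 53.0, 33.6, 59.6 and 53.5 on vehicle, a log2 fold change of -1.10 ± 0.33 (SE) (adjusted p = 0.183). Female Cfb was at 318, 343, 301 and 275 CPM on NR against 386, 406, 405 and 432, a log2 fold change of -0.39 ± 0.10 (SE) (adjusted p = 0.132). Female Cfi was at 33.4, 31.1, 17.4 and 12.3 CPM on NR against 56.2, 35.2, 48.0 and 47.1, a log2 fold change of -0.98 ± 0.30 (SE) (adjusted p = 0.187). For these 3 genes every NR-treated female was below every vehicle-treated female, as was so for 4.05% of all genes. DESeq2 called all 3 lower, with adjusted p of 0.0161 for C4b, 0.00253 for Cfb and 0.0241 for Cfi, and it called 704 of 15712 genes.

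The other genes spread widely among NR-treated Alport mice. Female C1qb was at 83.4, 58.4, 32.1 and 14.5 CPM on NR, from within the vehicle group down to the level of controls, with a log2 fold change of -0.77 ± 0.46 (SE) (adjusted p = 0.424). Female C3 was at 1595, 1683, 1436 and 558 CPM (log2 fold change -0.47 ± 0.34 (SE), adjusted p = 0.512). Replicate 4 was the lowest female for all 9 genes. Its injured-tubule markers summed to 3075 CPM and its macrophage markers to 191 CPM, against 4864 to 8176 and 248 to 547 CPM in the other 3.

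In males, C3 was at 2430.5, 939, 812 and 717 CPM on NR and C1qb at 141, 49.1, 31.6 and 54.5 CPM. Replicate 1 was high and the other 3 were below every vehicle-treated male for both genes. With all mice, the log2 fold change was -0.051 ± 0.38 (SE) for C3 and -0.24 ± 0.39 (SE) for C1qb (adjusted p = 0.994 and 0.958). Without replicate 1, C1qc fell by 0.96, C4b by 1.65 and C3ar1 by 0.95 on the log2 scale, with adjusted p of 0.0466, 0.0389 and 0.0442, and edgeR then called 2.39% of 15662 genes. C1qa and C1qb then had adjusted p of 0.0507 and 0.0504. With replicate 3 left out in place of replicate 1, edgeR called 0.00637% of 15700 genes. The log2 fold changes of C3 and C1qb were then 0.10 and 0.0036 (adjusted p of 0.996 and 0.999). C4b on NR was at 117, 43.5, 18.9 and 43.6 CPM in these males. The effect of NR was not found to differ between the sexes in Alport mice, with 0 of the 9 genes and 0% of 16189 genes called by edgeR, and 0 of the 9 had an unadjusted p under 0.05, beside 2.23% of all genes. DESeq2 called none of the 9, among 1 gene in all. The widest of the differences, females minus males, was -0.93 ± 0.63 (SE) for C5ar1.

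NR-treated Alport mice were also set against vehicle-treated controls, the same control mice as in the comparison of genotypes. In males 8 of the 9 genes were called higher and none lower, while 14.4% of 15077 genes were called higher and 6.75% lower. C3 was above these controls by 5.79 ± 0.45 (SE) on the log2 scale (adjusted p = 0.000768) and C1qb by 3.06 ± 0.42 (SE) (adjusted p = 0.00351). In females 8 were called higher and Cfb lower, while 11.5% of 15381 genes were called higher and 11.4% lower. C3 was above these controls by 4.27 ± 0.38 (SE) (adjusted p = 0.000352), C1qb by 1.88 ± 0.51 (SE) (adjusted p = 0.0326), and Cfb was at -0.39 ± 0.093 (SE) (adjusted p = 0.0137). The female calls of C1qa, C1qb, C1qc and C3ar1 had adjusted p of 0.0304 to 0.0404, their groups overlapped through replicate 4 alone, and all 4 were lost with limma-voom (adjusted p of 0.0554 to 0.0810). The female call of Cfb was lost in 1 fit of all mice (adjusted p = 0.0764) and without vehicle-treated control replicate 2 (adjusted p = 0.0504). The male call of C4b (adjusted p = 0.0237), where the groups overlapped, was lost with no filter on low counts (adjusted p = 0.0559). It was also lost without vehicle-treated replicate 1, 3 or 4 or NR replicate 1 (adjusted p of 0.0505 to 0.0725). Markers moved here too, with 8 of 8 injured-tubule and 8 of 10 fibroblast markers called higher in each sex and 9 of 12 macrophage markers in males and 6 of 12 in females. The macrophage sums were 227 to 884 CPM in males and 191 to 547 CPM in females, beside 141 to 173 and 163 to 220 CPM in these controls. The part of these in the complement values was not tested.

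**Figure D3:**
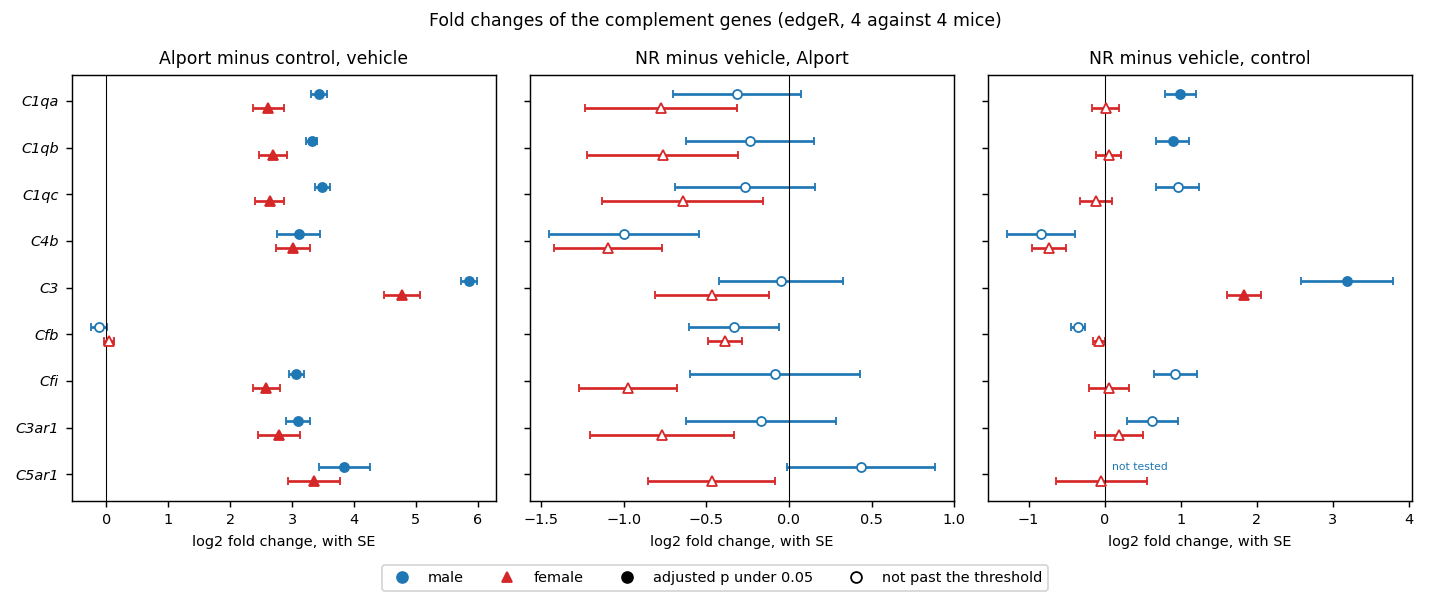
Log2 fold change with its SE for each complement gene in 3 comparisons of 4 against 4 mice, circles for males and triangles for females, filled where the adjusted p is under 0.05. In the Alport panel all but Cfb are filled, in the middle panel none is, and in the control panel C3 is filled in both sexes and C1qa and C1qb in males.

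NR was compared with vehicle in control mice too, with the vehicle-treated controls used above. C3 was called higher on NR in both sexes. In females it was the only one of the 9 genes called, while 4% of 14951 genes were called higher and 2.39% lower. Female C3 was at 323, 206, 214 and 247 CPM on NR against 57.4, 68.8, 93.7 and 54.7 on vehicle, a log2 fold change of 1.84 ± 0.22 (SE) (adjusted p = 0.00876). These groups did not overlap, as was so in the same direction for 8.69% of all genes. No other female gene passed the threshold. C1qb was at 14.6, 11.5, 15.1 and 12.4 CPM against 11.3, 9.95, 17.5 and 12.5 (log2 fold change 0.05 ± 0.17 (SE), adjusted p = 0.894). C4b was at 4.31, 3.77, 3.63 and 3.64 CPM against 6.43, 4.43, 9.53 and 4.89, a log2 fold change of -0.73 ± 0.22 (SE) (adjusted p = 0.0660). Its NR group lay wholly below, as was so for 6.03% of all genes. In these females no macrophage or injured-tubule marker was called. The injured-tubule sum was 1368 to 2293 CPM on NR and 1452 to 1996 on vehicle, and the macrophage sum was 163 to 185 and 163 to 220 CPM. The call of C3 held when any 1 mouse was left out, and was lost in 1 fit of all mice, where its log2 fold change was 1.85 (adjusted p = 0.0852). Other lists moved in these females. The adipocyte markers summed to 43.4 to 91.3 CPM on NR against 14.6 to 21.3 on vehicle, with 1 of 2 tested called higher, and the hepatocyte markers to 157 to 215 against 127 to 141 CPM, with 2 of 6 called higher. Their part in the C3 result was not tested.

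In male controls 8 of the 9 genes could be tested, and C3, C1qa and C1qb were called higher, while 2.97% of 14696 genes were called higher and 1.48% lower. Male C3 was at 286, 102, 373 and 64.3 CPM on NR against 21.2, 21.7, 26.2 and 22.7 on vehicle, a log2 fold change of 3.19 ± 0.60 (SE) (adjusted p = 0.0371). Every NR-treated male was above every vehicle-treated male for C3 and the C1q chains, as was so for 7.34% of all genes, and C3 in the NR group spanned from 64.3 to 373 CPM. C1qa was at 17.4, 23.0, 16.4 and 12.2 CPM against 10.5, 7.40, 7.05 and 9.85 (log2 fold change 0.996 ± 0.21 (SE), adjusted p = 0.0281). C1qb changed by 0.89 ± 0.21 (SE) (adjusted p = 0.0424), and C1qc, which did not pass the threshold, by 0.96 ± 0.28 (SE) (adjusted p = 0.0810). Cfi changed by 0.93 ± 0.28 (SE) (adjusted p = 0.0830). C4b and Cfb had values below 0, of -0.84 ± 0.45 (SE) (adjusted p = 0.309) and -0.35 ± 0.09 (SE) (adjusted p = 0.0519). DESeq2 called C1qc and Cfi higher and Cfb lower (adjusted p of 0.0109, 0.0190 and 0.000809), among 1641 genes in all. With limma-voom Cfb was called lower (adjusted p = 0.0472) and C1qb lost its call (adjusted p = 0.0690). Neither tool was run without NR replicates 1 and 3. Cfb was the gene whose NR group lay wholly below, as was so for 6.01% of all genes. C5ar1 was too low for the count filter, at 1.27, 1.14, 1.35 and 0.365 CPM on NR against 0.372, 0.0428, 0.444 and 0.333.

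The male control result moved with other markers and with its libraries. In NR-treated male controls, 7 of 8 endothelial, 4 of 10 fibroblast, 3 of 8 injured-tubule and 1 of 12 macrophage markers were called higher. The injured-tubule markers summed to 754 to 1979 CPM on NR against 553 to 700 on vehicle, and to 1979 and 1653 CPM in replicates 1 and 3, which had the highest C3. The endothelial sums were 575 to 801 against 397 to 446 CPM, the fibroblast sums 176 to 273 against 136 to 161 CPM, and the macrophage sums 145 to 214 against 141 to 173 CPM. The hepatocyte sums were 275 to 504 against 125 to 235 CPM, with 0 of 5 called by edgeR. The adipocyte sums were 34.4 to 57.9 against 22.6 to 26.5 CPM, with 0 of 2 tested called. The proximal tubule sums were lower on NR, at 13652 to 18953 against 19176 to 21280 CPM, with 1 of 12 called lower. The part of these in the C3 result was not tested. Without replicates 1 and 3, the libraries with Alport-like levels of Col4a3, C3 was still called, with a log2 fold change of 1.85 (adjusted p = 0.00379, in a fit that called 0.836% of 15188 genes), and C1qa and C1qb were not (adjusted p of 0.157 and 0.120). That fit kept only replicates 2 and 4 of the NR group. Their Col4a3 was at 94.1 and 160 CPM, and their injured-tubule markers summed to 1304 and 754 CPM. In that fit 2 of 8 endothelial markers were called higher, and edgeR called none of the fibroblast, injured-tubule or macrophage markers, of which 4, 5 and 4 had an unadjusted p under 0.05, as had 13.7% of all genes. With all other mice kept, C3 lost its call when any 1 vehicle-treated male was left out, or replicate 1 or 3 of the NR-treated males, with log2 fold changes of 2.72 to 3.25 and adjusted p of 0.0713 to 0.116 in those 6 fits. It also lost it with all mice and no filter on low counts, at 3.18 (adjusted p = 0.0595).

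C3 relative to C1q was also higher on NR in controls, as a description with no test. In males the log2 difference was 4.38, 2.18, 4.83 and 2.67 on NR, above 1.39, 1.49, 1.89 and 1.52 on vehicle, and the 2.18 and 2.67 of replicates 2 and 4 were above vehicle as well. In females it was 4.61, 4.02, 4.04 and 4.57 on NR, above 2.45, 2.89, 2.47 and 2.09 on vehicle. Within Alport mice the same quantity differed between NR and vehicle by 0.27 in males and 0.45 in females, each with p = 0.257 in an exact two-sided permutation test.

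The effect of NR in Alport mice minus its effect in controls was tested in 1 fit of 16 mice per sex. No gene was called in either sex, among the 9 or among all (0% of 15800 in males and 0% of 16064 in females), while 8.83% and 9.24% of all genes had an unadjusted p under 0.05. Among the 9, 4 genes in males (C3 and the C1q chains) and 3 in females (C3, Cfb and Cfi) had one. For C3 the difference was -3.26 ± 0.66 (SE) in males (unadjusted p = 0.000163, adjusted p = 0.395) and -2.33 ± 0.45 (SE) in females (unadjusted p = 0.000121, adjusted p = 0.323). DESeq2 called C3 in both sexes (adjusted p = 0.0124 in males and 0.000366 in females), among 18 and 30 genes in all. Without replicate 1 of the male Alport mice on NR, edgeR called 6 of the 9 genes lower in males, among 4.92% of 15942 genes called in either direction. Without replicates 1 and 3 of the NR-treated male controls, the C3 difference was -1.92 (adjusted p = 0.976) in males, and edgeR called 0 of the 9 genes.

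**Figure D4:**
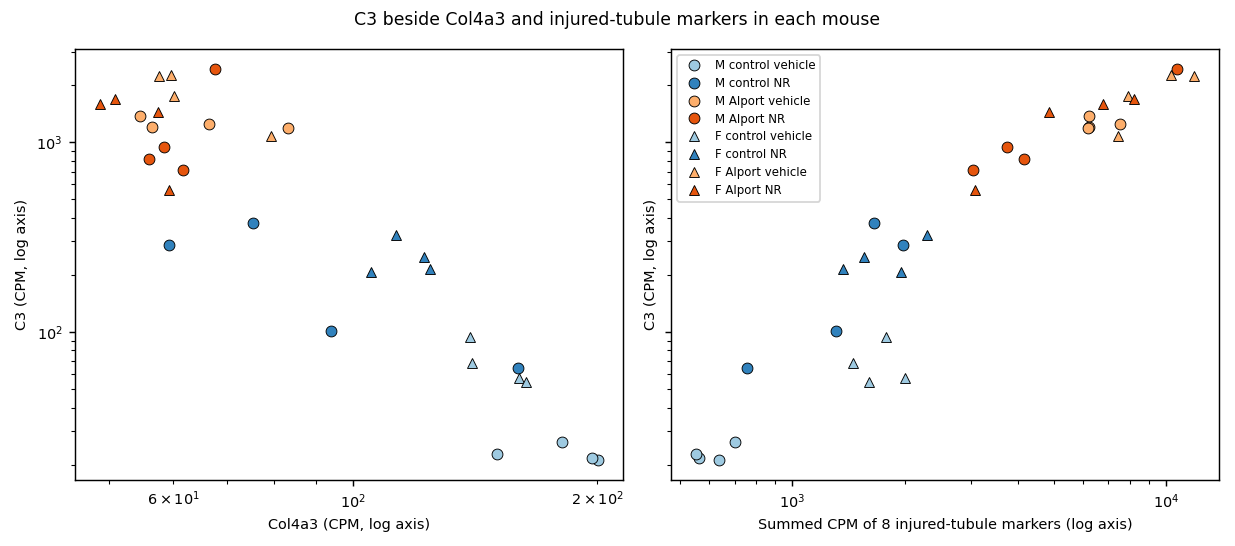
C3 in CPM against Col4a3 in CPM (left) and against the summed CPM of 8 injured-tubule markers (right), 1 point per mouse on log axes, for all 8 groups. Among NR-treated male controls, the 2 mice with Col4a3 at 59.4 and 75.2 CPM have C3 at 286 and 373 CPM, and every Alport mouse has C3 at 558 CPM or more.

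Sex was compared next, within vehicle-treated mice of each genotype. In controls, 8 of the 9 genes could be tested, and 5 were called higher in females (C1qa, C1qb, C1qc, C3 and Cfi) and Cfb lower, while 15.7% of 14990 genes were called higher and 15.8% lower. C3 was 1.61 ± 0.17 (SE) higher in females on the log2 scale (adjusted p = 0.000157), a 3.05-fold difference. Cfi was 1.15 ± 0.21 (SE) higher (adjusted p = 0.000967) and the C1q chains 0.60 to 0.77 higher. Cfb was at -0.48 ± 0.072 (SE) (adjusted p = 0.000233), and C4b at -1.07 ± 0.39 (SE) (adjusted p = 0.0752), which DESeq2 and limma-voom called lower (adjusted p of 0.0332 and 0.0413). In 1 fit of all mice only C3 and Cfb kept a call. In the same comparison 5 of 8 injured-tubule, 7 of 10 fibroblast, 6 of 8 podocyte, 4 of 8 endothelial and 2 of 12 macrophage markers were called higher in females, and 5 of 12 proximal tubule markers lower and 1 higher. The injured-tubule sums were 1452 to 1996 CPM in female and 553 to 700 CPM in male controls, and the part of these in the sex differences was not tested.

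In vehicle-treated Alport mice, 1 of the 9 genes was called higher in females and 1 lower, while 1.86% of 15791 genes were called higher and 2.12% lower. Cfi was 0.69 ± 0.13 (SE) higher in females (adjusted p = 0.0160), and C4b was at -1.15 ± 0.18 (SE) (adjusted p = 0.00885), a 2.22-fold higher level in males. Neither gene's groups overlapped, as was so for 6.38% of all genes with females higher and 5.86% with females lower, and neither was called in 1 fit of all mice. C3 was at 0.54 ± 0.21 (SE) (adjusted p = 0.182) and the C1q chains at -0.071 to -0.0082.

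The Alport effect in females minus that in males was tested in the 16 vehicle-treated mice. None of the 9 genes was called, and 0.341% of 16152 genes were called lower and 0.155% higher. The values were below 0 for 8 of 9, and 4 had an unadjusted p under 0.05, as had 11.8% of all genes. C3 differed by -1.12 ± 0.28 (SE) (unadjusted p = 0.000779, adjusted p = 0.0871) and the C1q chains by -0.89 to -0.66. C4b differed by -0.13 ± 0.45 (SE) (adjusted p = 0.965). DESeq2 called C3 lower (adjusted p = 0.0129), among 258 genes.

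The group means of log2 CPM put the genes in different orders. For C3 the order from low to high was vehicle-treated male then female controls, NR-treated male then female controls, NR-treated male then female Alport mice, and vehicle-treated male then female Alport mice. Ranges of neighbours in that order did not overlap between the vehicle-treated controls of the sexes and between NR-treated female controls and NR-treated male Alport mice. Over the 9 genes, 9 of 63 neighbouring pairs had ranges apart. For Cfb none of its 7 neighbouring pairs did. The orders come from these same means and the share over all genes was not computed, so these counts are only a description.

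The wider complement system was described with 50 other genes, 49 of them in the table. In the Alport comparison 33 could be tested in each sex. In males 19 were called higher, 4 lower and 10 not, and in females 15 higher, 4 lower and 14 not, beside 26.8% higher and 24% lower of all genes in males and 23.9% and 21.8% in females. Their median log2 fold change was 1.26 in males and 0.63 in females. The genes called higher in both sexes numbered 15, and 2 were called lower in both.

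By the mean of the sexes, the 5 largest rises among the genes called in both were C6, Itgam, Itgax, C7 and Masp1. C6 and C7 encode parts of the membrane attack complex. C6 rose by 4.00 ± 0.35 (SE) in males and 3.89 ± 0.42 (SE) in females from levels of 0.214 and 0.261 CPM, and C7 by 3.55 ± 0.29 (SE) and 2.31 ± 0.33 (SE). Itgam and Itgax encode the alpha chains of complement receptors 3 and 4 on leukocytes. Itgam rose by 3.49 ± 0.25 (SE) and 2.83 ± 0.27 (SE), and Itgax by 3.48 ± 0.26 (SE) and 2.59 ± 0.36 (SE). Masp1, a protease of the lectin pathway, rose by 3.18 ± 0.49 (SE) and 2.26 ± 0.22 (SE). The other 10 genes called higher in both sexes rose by 1.26 to 3.09 in males and 1.08 to 2.33 in females. C8a, another part of the membrane attack complex, fell by 0.76 and 1.56 on the log2 scale, and C1qbp, a mostly mitochondrial protein, fell by 0.42 and 0.39.

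**Figure D5:**
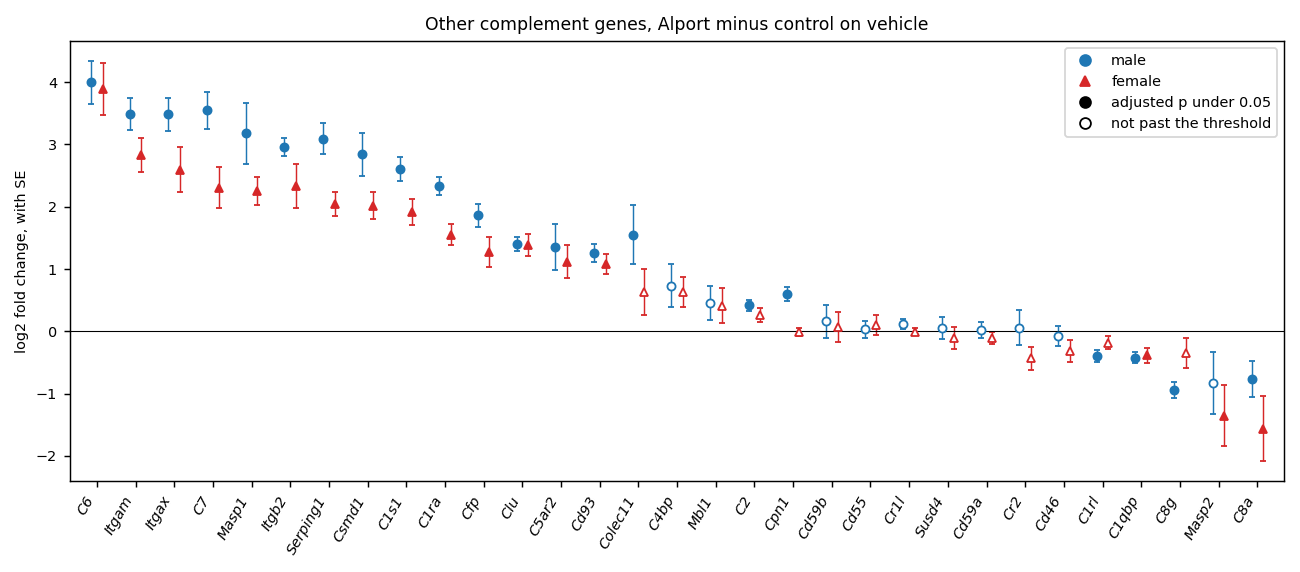
Log2 fold change with its SE of vehicle-treated Alport minus control mice for 31 of the other complement genes tested in both sexes, circles for males and triangles for females, filled where the adjusted p is under 0.05. The order is by the mean of the sexes, from C6 at 4.00 and 3.89 to C8a at -0.76 and -1.56.

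The same genes were compared for NR. In Alport mice edgeR called none, of 33 tested in males and 31 in females, where 0% and 0.458% of all genes were called. Of them 2 in males and 5 in females had an unadjusted p under 0.05, as had 5.01% and 16.5% of all genes. In male controls 6 of 30 were called higher on NR and none lower, beside 2.97% and 1.48% of all genes. Among these, Serping1, the C1 inhibitor, rose by 1.11 ± 0.19 (SE) (adjusted p = 0.0142), C7 by 1.36 ± 0.27 (SE), Cd93 by 0.86 ± 0.16 (SE) and C1s1 by 0.76 ± 0.14 (SE). Without replicates 1 and 3 edgeR called 0 of 32, of which 12 had an unadjusted p under 0.05, beside 13.7% of all genes. Serping1, C7, Cd93 and C1s1 then had log2 fold changes of 0.56 to 1.24 with adjusted p of 0.0968 to 0.140. In female controls 1 of 32 was called, C1rl, a C1r-like protease, at 0.30 ± 0.078 (SE) (adjusted p = 0.0394), where 4% of all genes were called higher and 2.39% lower. In vehicle-treated controls 9 of 32 were called higher in females and 3 lower, beside 15.7% and 15.8% of all genes. In vehicle-treated Alport mice edgeR called 0 of 34, while 1.86% of all genes were called higher in females and 2.12% lower. Of the 34, 5 had an unadjusted p under 0.05, beside 19.6% of all genes. Cfd, factor D, which cleaves factor B and is made mainly by fat, was at 0 to 1.61 CPM, with at most 43 counts in a library, and was not tested. The adipocyte markers summed to 14.6 to 105 CPM over the 32 mice.

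The genes most like each of the 9 were found by Pearson correlation of log2 CPM over the 32 mice, which share the difference between genotypes, and again after subtracting each group's mean. C1qa, C1qb and C1qc had r of 0.99 with each other. Next to them stood Laptm5 for C1qa (r = 0.99) and Mpeg1 for C1qb and C1qc (r = 0.99). With group means subtracted, the closest were Fcer1g, Laptm5 and C1qb for C1qa, Laptm5, Nckap1l and C1qc for C1qb, and C1qb, Lyz2 and Nckap1l for C1qc, with r of 0.96. Such values weigh the NR-treated Alport mice most. The SD of log2 CPM of C1qa was 0.91 in their males and 1.11 in their females, against 0.14 to 0.41 in the other groups. C3ar1 stood closest to Mpeg1, Lyz2 and Nckap1l (r of 0.98 to 0.99), and within groups to Mpeg1 (r = 0.95), Cyth4 and the macrophage marker Adgre1.

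The other genes had other neighbours. C3 was most like Pea15a, Mvp and Arhgap23 over all mice (r = 0.95), and within groups like Hexa, Spp1 and Mdk (r of 0.82 to 0.84), of which Spp1 encodes osteopontin and is on the injured-tubule list. C4b was most like Il34, Ly6e and Bspry (r of 0.94 to 0.96), and within groups like Aoc1, Irf4 and Selplg (r of 0.88 to 0.90). Cfi was most like Serpina10, Dock10 and Pik3ap1 (r of 0.96 to 0.97), and within groups like Fzd1, Cx3cr1 and Ltbp2 (r of 0.88 to 0.90). C5ar1 was most like Slc11a1, Ctss and Rhob (r of 0.95 to 0.96), and within groups like Rgs19, Htra3 and Arhgap25 (r of 0.80 to 0.83). Cfb was most like Vill, Slc30a2 and Acy3 (r of 0.89 to 0.90), and within groups like Enpp3 and Glb1l (r of 0.87 to 0.92). Cfb itself had r of -0.42 with C3 and of -0.15 with C1qa over the 32 mice. With group means subtracted, C3 had r of 0.61 with C1qa and 0.55 with C4b, below the 0.79 between C1qa and C4b.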

How the data were processed

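RNA from the kidney cortex of 32 mice, 1 library per mouse, was sequenced after poly(A) selection. The authors deposited a table of raw counts per gene symbol, made with BioJupies, and a second table that they computed from it. The deposited second table holds log10 of CPM plus 1, from which log10 values computed from the counts differ by at most 8.88e-16, and it was used for that check alone. The genome build in the submitters' processing notes is mm10. The aligner, annotation and strand setting are not given in the sources used here. Libraries held 16621944 to 27778797 counts, which makes genes of a few counts, such as C5ar1 in controls, imprecise.

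Groups of 4 mice came from the sample labels. For each comparison edgeR 4.0.16 in R 4.3.3 was fitted to its own 8 mice (16 for differences between effects), with filterByExpr at a minimum count of 10, TMM scaling and the robust quasi-likelihood F test, and p-values were adjusted by Benjamini-Hochberg over all genes tested. The SE is the absolute log2 fold change divided by the square root of F. Log2 CPM used a prior count of 2. The ratio of C3 to C1q was tested by exact two-sided permutation. The scripts were tested on simulated data. Alternatives were DESeq2 1.42.0, limma-voom 3.58.1, RLE scaling, no filter, 1 fit of all mice, a replicate block and leaving out each mouse. Leaving out replicates 1 and 3 of the NR-treated male controls was added after seeing the data. Whether replicate numbers pair the samples was checked by the correlation of deviations from group means, which was -0.17 to 0.26 over 40 pairs, with 5 over 0.1 and no comparison in which every pair was, so the main fits have no block. Counts of replicates differed by at least 7.96 times sampling noise (chi-square per degree of freedom over 48 pairs), so none was counted as a duplicate.

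The 9 genes and all lists were chosen with earlier results of these data known. Beside the 9, the text names the other complement genes called in both sexes with the 5 largest Alport changes in each direction, at most 5 called in an NR comparison, the 3 genes most correlated with each of the 9, Col4a3 and Cfd, and markers from fixed lists. Some genes that these rules would name are not reported here.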

Additional observations from a re-analysis of the deposited data

Results flagged for a closer look

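In 6 of the 72 groups of 4 mice (9 genes in 8 groups), 1 mouse stood far from the other 3 by Dixon's gap test, where chance gives about 1 in 20 groups. C3 was at 558 CPM in replicate 4 of the NR-treated female Alport mice, against 1436 to 1683 CPM in the others. Cfb was at 212 CPM in replicate 3 of the NR-treated male Alport mice, against 425 to 485 CPM. Cfi was at 4.25 CPM in replicate 1 of the vehicle-treated male controls, against 3.43 to 3.46 CPM. C5ar1 gave the other 3. It was at 0.0428 CPM, a single count, in replicate 2 of the vehicle-treated male controls, against 0.333 to 0.444 CPM. It was at 0.365 CPM in replicate 4 of the NR-treated male controls, against 1.14 to 1.35 CPM, and at 11.6 CPM in replicate 1 of the NR-treated male Alport mice, against 3.19 to 3.75 CPM.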

How the results depend on the processing

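The 8 calls of the 9 genes in each Alport comparison with vehicle held under every alternative tried and with any 1 mouse left out, and no call of the 9 genes changed direction in any comparison. Fold changes that were not called changed sign in 67 instances over 26 results, from values of -0.62 to 0.44 to values of -0.24 to 0.52. With DESeq2, the number of the 9 genes called went from 0 to 3 for NR in female Alport mice, from 3 to 6 for NR in male controls and from 1 to 2 in female controls, and from 0 to 1 for the sex difference of the Alport effect and for the difference of the NR effect between genotypes in each sex. For sex in controls, DESeq2 and limma-voom also called C4b lower in females (adjusted p of 0.0332 and 0.0413). With no filter C3 for NR in male controls and C4b for NR-treated male Alport mice against controls lost their calls (adjusted p of 0.0595 and 0.0559). The number was then 2 for NR in female controls and 5 in place of 9 for NR-treated female Alport mice against vehicle-treated controls, and 5 for the latter with limma-voom. In 1 fit of all mice it was 1 for NR in male controls, 0 in female controls, 2 in place of 6 for sex in controls and 0 in place of 2 for sex in Alport mice. The causes were not tested.

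The labels give replicate numbers without stating that they pair the samples, and the check by correlation did not show pairing. With a replicate block, the number of the 9 genes called was 1 for NR in male controls, 0 for NR in female controls (C3 adjusted p = 0.0526), 4 for NR-treated female Alport mice against vehicle-treated controls, 1 for sex in Alport mice and 1 for the sex difference of the Alport effect. Without replicates 1 and 3 of the NR-treated male controls it was 1 for NR in male controls.

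With 1 mouse left out, the number of the 9 genes called ranged from 0 to 3 for NR in male Alport mice (3 without NR replicate 1) and from 0 to 7 for NR in male controls (0 without any vehicle-treated mouse or NR replicate 1 or 3, and 7 without NR replicate 4). It ranged from 1 to 2 for NR in female controls (2 without vehicle-treated replicate 2), 7 to 8 and 4 to 9 for NR-treated Alport mice against vehicle-treated controls in males and females, 6 to 7 for sex in controls and 1 to 3 for sex in Alport mice (1 without replicate 4 of either sex). The count of 4 or 5 in females came without vehicle-treated replicate 1, 2 or 4 or NR replicate 2. The difference of the NR effect between genotypes in males ranged from 0 to 6 (6 without Alport NR replicate 1). The log2 difference of C3 from C1q ranged from 0.43 to 0.62 for sex, 2.39 to 2.56 and 1.97 to 2.24 for Alport in males and females, and 0.10 to 0.43 and 0.29 to 0.70 for NR in Alport males and females.

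Counts over all genes moved as well. DESeq2 and edgeR called 1641 and 654 genes for NR in male controls, 1478 and 956 in female controls, 704 and 72 for NR in female Alport mice, and 1349 and 628 for sex in Alport mice. In 1 fit of all mice these were 240 for NR in female Alport mice, 77 in male Alport mice, 20 for NR in female controls, 366 for sex in Alport mice, 5 in place of 80 for the sex difference of the Alport effect, 2795 in place of 4719 for sex in controls and 6818 in place of 3186 for NR-treated male Alport mice against controls. With 4 mice a group, effects of the size seen for NR in Alport mice had SEs of 0.10 to 0.51 on the log2 scale.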
